A study of Mus musculus with 56 samples.

Results

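The genes described here are 34 mouse genes of cholesterol and fatty acid synthesis, chosen by name as enzymes driven by the sterol regulatory element-binding proteins (SREBPs) and as regulators of cell sterol. All 34 were found by Entrez ID among the 24424 genes of the deposited expression table, and all 34 passed the filter on low values (a mean of at least 4 over all libraries) that left 12133 genes for testing. They comprise 18 enzymes of cholesterol synthesis, 10 regulators and transporters of sterol, and 6 enzymes of fatty acid synthesis.

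Expression was measured by RNA-seq with a stranded mRNA kit in progenitor cells that were sorted out of C57BL/6 mouse bone marrow. Mutant mice carried the genotype Tet2-/-Flt3ITD, in which both copies of Tet2, encoding an oxidase of 5-methylcytosine, are lost and the gene of the receptor kinase FLT3 bears an internal tandem duplication; they are called T2F3. Granulocyte-macrophage progenitors (GMP, gated as lineage-negative, Sca-negative, cKit-positive, CD34-positive and CD16/32-positive) gave 3 T2F3 libraries, numbered 1 to 3, and 5 wild-type (WT) libraries, numbered 1 to 5. Multipotent progenitors (MPP, gated as lineage-negative, Sca-positive, cKit-positive, CD48-positive and CD150-negative) gave 3 T2F3 libraries, numbered 1 to 3, and 4 WT libraries, numbered 1, 3, 4 and 5. The age of the mice, the promoters and breeding behind the alleles and any treatment are not given in the sources used here. Nothing in the labels says that each library came from a separate animal, so the p-values rest on library-to-library spread, which may be technical. In bulk libraries of this kind, fewer cells of a type and less RNA per cell cannot be told apart.

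Cholesterol is made from acetyl-CoA through mevalonate, isoprenoid diphosphates, squalene and lanosterol. When sterol in the endoplasmic reticulum is low, SCAP escorts SREBP to the Golgi, where it is cleaved into a transcription factor that raises the enzymes of the pathway; INSIG proteins hold the SCAP-SREBP complex back when sterol is high. Oxysterols made from excess cholesterol activate the liver X receptors (LXRs), which raise the cholesterol exporters ABCA1 and ABCG1.

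Values are regularized log2 expression values without read counts. Sequencing depth per library is therefore unknown, and levels are compared between libraries for 1 gene at a time, never between genes. A level is given per library or as a group mean ± SD, and a difference as the limma estimate ± SE. Ribosomal protein genes in WT GMP 1 and T2F3 GMP 2 lay 1.08 and 0.81 log2 units above the rest of their group, as the median of 76 genes, and those in T2F3 GMP 3 at -0.63. Gate genes followed the labels for CD16/32, with Fcgr3 at 10.27 to 11.58 in GMP libraries and 8.71 to 9.15 in MPP libraries. Within MPP, Cd48 and Kit, which encode gate proteins, differed by genotype: Cd48 was at 11.39 to 11.60 in T2F3 MPP and 9.76 to 10.09 in WT MPP, and Kit at 11.27 to 11.45 in T2F3 MPP and 12.12 to 12.41 in WT MPP. Fcgr2b was higher by 0.78 in T2F3 MPP, and the part of these gate genes in the results was not tested. CD150 (Slamf1) stood at 2.08 to 2.13 in T2F3 MPP and 2.76 to 3.10 in WT MPP. Ly6a, which encodes Sca-1, was lower in GMP than in MPP within each genotype (7.45 to 7.69 against 8.18 to 8.52 in T2F3, and 6.97 to 7.33 against 7.53 to 7.90 in WT), but was not absent from GMP. It also differed by genotype, with T2F3 above WT without overlap in MPP and in GMP. Its T2F3 GMP libraries reached into the range of WT MPP. The part of Ly6a in the results was not tested either.

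**Figure D1:**
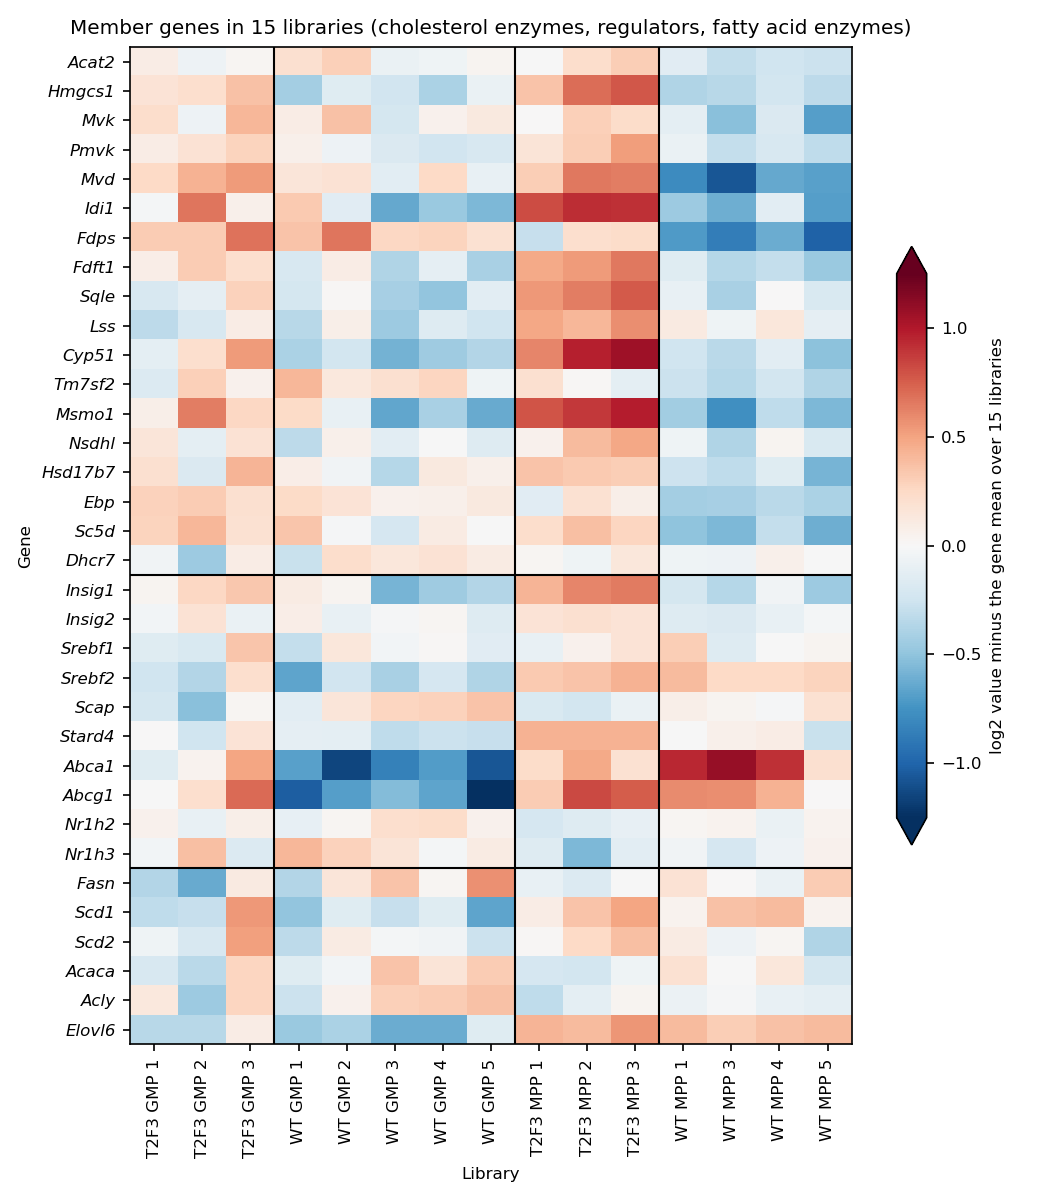
Level of the 34 genes (rows, ordered as cholesterol synthesis enzymes, regulators and transporters, and fatty acid synthesis enzymes, split by lines) in the 15 libraries (columns, 3 T2F3 GMP, 5 WT GMP, 3 T2F3 MPP and 4 WT MPP, split by lines), as the log2 value minus the gene's mean over all libraries. Most cholesterol enzymes are red in the T2F3 MPP columns and blue in the WT MPP columns, while the fatty acid enzymes show no such block.

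In multipotent progenitors the cholesterol synthesis enzymes were higher in T2F3 than in WT almost throughout. Of 18 enzymes, 16 rose and 0 fell at a limma adjusted p under 0.05, where 20.7% of all tested genes rose and 19.6% fell, 40.3% in all. At an unadjusted limma p under 0.05, 17 were higher and 0 lower, where 3140 of 12133 tested genes were higher and 3064 lower. The median difference of the enzymes was 0.72 on the log2 scale, against -0.02 over all tested genes. The lowest T2F3 library lay above the highest WT library for 17 of the 18 enzymes, as it did for 28.1% of tested genes; the reverse held for 0 enzymes and 26.0% of tested genes. The mean level of the 18 enzymes was 8.37, 8.54 and 8.59 in T2F3 MPP libraries 1, 2 and 3, against 7.82, 7.65, 7.89 and 7.65 in WT MPP libraries 1, 3, 4 and 5.

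The first steps, from acetyl-CoA to mevalonate and its phosphates, held a clear difference at Hmgcs1, the cytosolic HMG-CoA synthase. Its level was 10.67, 11.01 and 11.09 in T2F3 MPP, against 9.94, 9.97, 10.08 and 9.99 in WT MPP. The groups did not overlap and the difference was 0.93 ± 0.11 (SE), a 1.90-fold rise with a limma adjusted p of 9.49e-06. Mvd, the mevalonate diphosphate decarboxylase that closes the mevalonate segment, read 7.48, 7.83 and 7.81 in T2F3 MPP, against 6.38, 6.10, 6.53 and 6.49 in WT MPP. Every T2F3 library stood well above every WT library, and the rise was 2.52-fold (1.33 ± 0.13, adjusted p = 1.77e-06). Smaller rises were found for Acat2, the acetoacetyl-CoA thiolase (0.42 ± 0.10, adjusted p = 0.00566), for mevalonate kinase Mvk (0.56 ± 0.16, adjusted p = 0.0134) and for phosphomevalonate kinase Pmvk (0.56 ± 0.11, adjusted p = 0.00102). Mean levels in T2F3 MPP and WT MPP were 9.74 ± 0.16 and 9.32 ± 0.07 for Acat2 (SD, n = 3 and 4), 7.13 ± 0.15 and 6.57 ± 0.27 for Mvk, and 7.72 ± 0.18 and 7.16 ± 0.11 for Pmvk. Acat2 has a close relative, Acat3, beside it on chromosome 17 in the GRCm38.p6 annotation, so the split of reads between them is uncertain.

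Next in the pathway, the isoprenoid enzymes that build squalene rose as well. Idi1, which isomerizes isopentenyl diphosphate, was at 9.92, 10.03 and 10.02 in T2F3 MPP, against 8.65, 8.50, 8.98 and 8.42 in WT MPP. The T2F3 libraries were closely spaced and lay apart from all WT libraries, with a 2.56-fold rise (1.35 ± 0.21, limma adjusted p = 0.000144). Farnesyl diphosphate synthase Fdps read 8.90, 9.39 and 9.41 in T2F3 MPP, against 8.48, 8.32, 8.56 and 8.17 in WT MPP; T2F3 MPP 1 was nearest to the WT range and the difference was 0.85 ± 0.15 (adjusted p = 0.000387). Squalene synthase Fdft1 read 8.01, 8.07 and 8.19 in T2F3 MPP, against 7.38, 7.18, 7.24 and 7.07 in WT MPP, and rose by 0.88 ± 0.12 (adjusted p = 4.32e-05). Squalene epoxidase Sqle read 9.12, 9.22 and 9.35 in T2F3 MPP, against 8.49, 8.18, 8.59 and 8.39 in WT MPP, a rise of 0.82 ± 0.14 (adjusted p = 0.000376). None of these groups overlapped. Lanosterol synthase Lss, which closes the sterol ring system, rose less, by 0.48 ± 0.13 (adjusted p = 0.00965), at 7.84 ± 0.09 in T2F3 MPP and 7.36 ± 0.13 in WT MPP.

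Among the enzymes that turn lanosterol into cholesterol, Msmo1 and Cyp51 held the largest differences. Msmo1, the methylsterol monooxygenase, read 8.82, 8.92 and 9.01 in T2F3 MPP, against 7.60, 7.27, 7.72 and 7.47 in WT MPP. No T2F3 library came near the WT range, and the 2.65-fold rise (1.41 ± 0.19, limma adjusted p = 3.75e-05) was the largest of the 34 genes. Cyp51, the lanosterol demethylase, read 8.98, 9.34 and 9.43 in T2F3 MPP, against 8.12, 8.03, 8.24 and 7.86 in WT MPP, a 2.28-fold rise (1.19 ± 0.14, adjusted p = 1.36e-05). Lathosterol oxidase Sc5d rose by 0.78 ± 0.11 (adjusted p = 9.15e-05), at 8.44 ± 0.08 in T2F3 MPP and 7.66 ± 0.14 in WT MPP. The ketosteroid reductase Hsd17b7 rose by 0.66 ± 0.15 (adjusted p = 0.00342), at 6.77 ± 0.02 in T2F3 MPP and 6.11 ± 0.18 in WT MPP. The sterol dehydrogenase Nsdhl rose by 0.46 ± 0.13 (adjusted p = 0.0125), at 8.06 ± 0.23 in T2F3 MPP and 7.60 ± 0.18 in WT MPP, and the sterol isomerase Ebp by 0.43 ± 0.08 (adjusted p = 0.00105), at 9.07 ± 0.17 in T2F3 MPP and 8.63 ± 0.04 in WT MPP. The exceptions were Tm7sf2 and Dhcr7. Tm7sf2 read 6.65, 6.47 and 6.33 in T2F3 MPP, against 6.19, 6.10, 6.22 and 6.08 in WT MPP; the groups lay apart but the difference of 0.34 ± 0.13 just missed the threshold (adjusted p = 0.0509). Tm7sf2 passed under 8 of the alternative settings, among them quantile normalization (0.29, adjusted p = 0.043), the compared groups alone (0.34, adjusted p = 0.0292) and the fit without WT GMP 1 (adjusted p = 0.0353). Dhcr7, which carries out a terminal reduction, read 8.41, 8.33 and 8.53 in T2F3 MPP, against 8.33, 8.32, 8.45 and 8.38 in WT MPP, a difference of 0.05 with a 95% interval of -0.22 to 0.32.

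Without T2F3 MPP 2, or without T2F3 MPP 3, Mvk and Nsdhl no longer passed, and the count of enzymes that rose was 14 to 17 over all libraries left out in turn. Ribosomal protein genes were also higher in T2F3 MPP (59 of 76 rose and 1 fell, median difference 0.72, with a score of 12.99 to 13.02 in T2F3 MPP and 12.27 to 12.37 in WT MPP). With that score as a covariate 17 of 18 enzymes passed, Dhcr7 among them, at a median of 0.68. The score split by genotype in MPP and varied within groups mainly in GMP, so its slope rests on GMP libraries. Values with this covariate in MPP therefore cannot set the score apart from genotype, here and below. Dendritic cell markers moved with genotype too: 10 of 12 rose and 0 fell in T2F3 MPP, their mean level was 9.45 to 10.32 in T2F3 MPP and 7.43 to 8.17 in WT MPP, and none was at 0. In T2F3 MPP libraries 1, 2 and 3 these markers stood at 9.45, 10.32 and 10.04, and the enzymes at 8.37, 8.54 and 8.59. In WT MPP libraries 1, 3, 4 and 5 these markers stood at 7.43, 8.17, 8.09 and 8.03. The enzymes stood at 7.82, 7.65, 7.89 and 7.65 in the same WT order. Of 9 tested monocyte and macrophage markers, 8 rose (mean level 9.45 to 10.34 in T2F3 MPP and 8.30 to 8.80 in WT MPP), with none at 0. Markers of some other lineages fell: 8 of 9 tested erythroid markers (mean level 5.04 to 5.22 in T2F3 MPP and 6.73 to 7.15 in WT MPP, with 1 of the 11 listed at 0 in every library), 4 of 5 tested B cell markers (4.43 to 4.58 in T2F3 MPP and 5.88 to 6.78 in WT MPP) and 5 of 6 mast cell and basophil markers (6.55 to 6.82 in T2F3 MPP and 7.70 to 8.05 in WT MPP). None of these lists had a member that moved the other way past the threshold. Mcpt8 of the mast cell and basophil list was higher in T2F3 MPP (8.71 ± 0.10 against 8.10 ± 0.19) at an unadjusted limma p under 0.05. Of 4 tested T and NK cell markers, 2 rose and 1 fell in T2F3 MPP, and of 9 neutrophil markers 1 rose and 0 fell. The part of any marker list in the enzyme differences was not tested. Of 15 proliferation genes, 1 rose and 1 fell in T2F3 MPP.

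**Figure D2:**
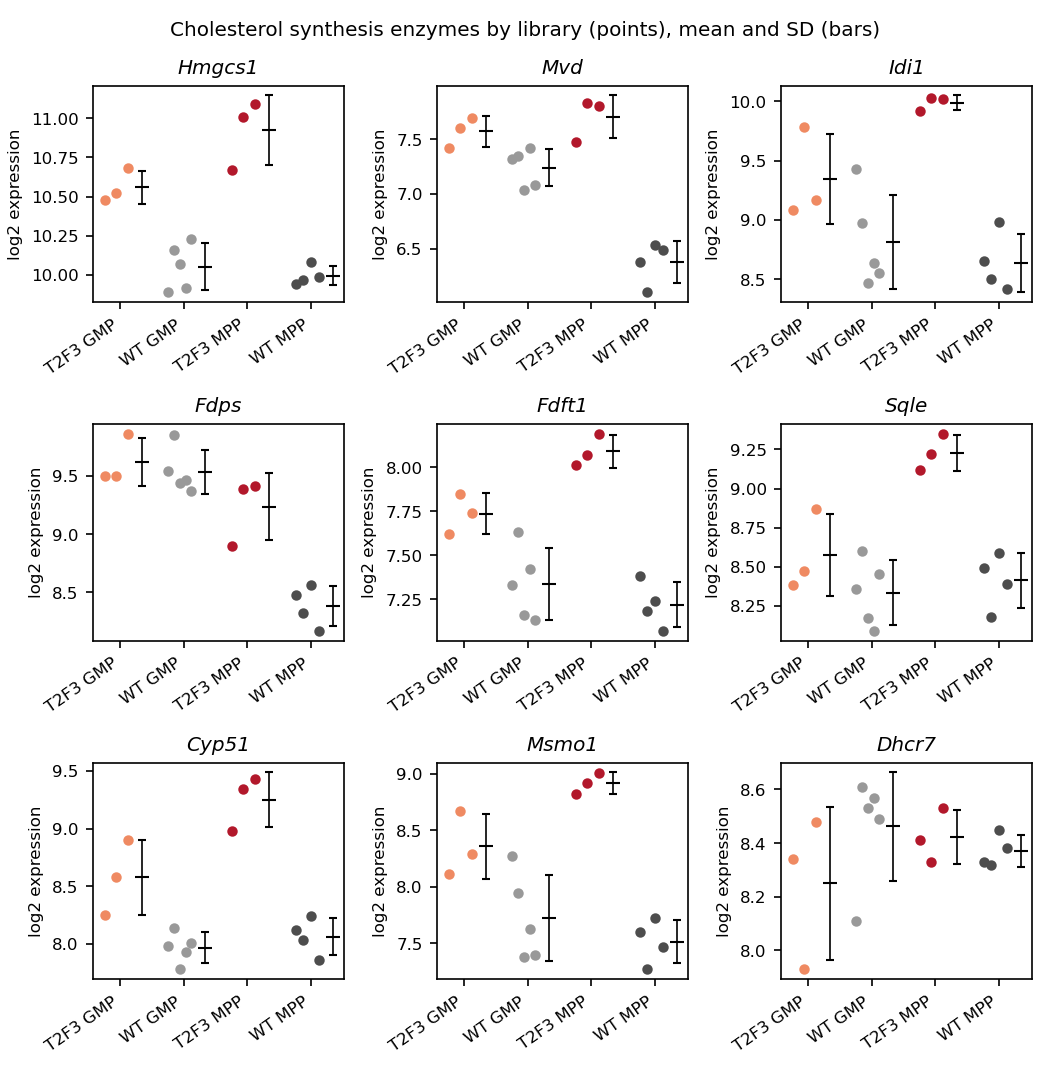
Log2 expression (y axis) of 9 cholesterol synthesis enzymes in each library (points) of the T2F3 GMP, WT GMP, T2F3 MPP and WT MPP groups (x axis), with the group mean and SD over libraries (bars). In 8 panels the T2F3 MPP points lie above all WT MPP points, whereas Dhcr7 overlaps, and in those 8 panels the means of the GMP groups lie closer together than those of the MPP groups.

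Promoters of the enzymes with the largest rises are shown because these genes moved together and because SREBP is known to act beside the CCAAT-binding factor NF-Y. Each window runs from 250 bases before to 50 bases after the start, 5′ to 3′ on the gene's strand, from RefSeq on GRCm38.p6, which differs from the mm9 build named in the submitters' processing notes. Capitals mark CCAAT on either strand (ATTGG where it lies on the other strand) and the sterol regulatory element core TCACNCCAC, which share no base in these windows. The windows are Msmo1 at chr8:64733529-64733828, minus strand; Idi1 at chr13:8885356-8885655, plus strand; Mvd at chr8:122443373-122443672, minus strand; Cyp51 at chr5:4104648-4104947, minus strand; Hmgcs1 at chr13:119690101-119690400, plus strand; and, for contrast, the exporter gene Abca1 at chr4:53159846-53160145, minus strand.
Msmo1: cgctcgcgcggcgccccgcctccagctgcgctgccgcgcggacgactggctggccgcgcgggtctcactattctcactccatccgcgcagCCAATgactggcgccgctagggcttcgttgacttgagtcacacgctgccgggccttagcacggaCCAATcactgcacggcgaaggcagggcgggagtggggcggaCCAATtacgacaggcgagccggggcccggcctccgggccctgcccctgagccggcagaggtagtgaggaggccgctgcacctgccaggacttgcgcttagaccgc
Idi1: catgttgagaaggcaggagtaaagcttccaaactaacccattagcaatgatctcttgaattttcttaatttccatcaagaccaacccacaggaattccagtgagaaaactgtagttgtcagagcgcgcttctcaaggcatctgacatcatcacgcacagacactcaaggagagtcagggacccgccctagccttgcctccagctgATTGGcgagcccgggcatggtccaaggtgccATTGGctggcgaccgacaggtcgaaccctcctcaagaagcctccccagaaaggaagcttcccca
Mvd: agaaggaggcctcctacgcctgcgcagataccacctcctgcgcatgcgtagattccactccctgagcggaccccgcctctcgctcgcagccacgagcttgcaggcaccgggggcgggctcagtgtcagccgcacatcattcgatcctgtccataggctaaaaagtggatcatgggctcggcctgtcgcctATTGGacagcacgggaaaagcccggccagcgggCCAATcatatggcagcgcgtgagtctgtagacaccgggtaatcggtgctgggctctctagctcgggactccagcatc
Cyp51: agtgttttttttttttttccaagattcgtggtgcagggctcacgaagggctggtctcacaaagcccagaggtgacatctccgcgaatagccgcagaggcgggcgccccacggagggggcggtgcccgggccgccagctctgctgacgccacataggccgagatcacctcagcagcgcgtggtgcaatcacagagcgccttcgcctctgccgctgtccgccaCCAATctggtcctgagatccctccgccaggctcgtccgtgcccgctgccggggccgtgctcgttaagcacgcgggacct
Hmgcs1: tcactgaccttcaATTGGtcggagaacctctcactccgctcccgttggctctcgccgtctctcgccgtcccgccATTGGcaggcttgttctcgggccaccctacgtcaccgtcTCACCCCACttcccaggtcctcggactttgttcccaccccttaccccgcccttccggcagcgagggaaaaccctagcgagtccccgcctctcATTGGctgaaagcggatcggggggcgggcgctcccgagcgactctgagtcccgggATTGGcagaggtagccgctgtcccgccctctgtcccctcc
Abca1: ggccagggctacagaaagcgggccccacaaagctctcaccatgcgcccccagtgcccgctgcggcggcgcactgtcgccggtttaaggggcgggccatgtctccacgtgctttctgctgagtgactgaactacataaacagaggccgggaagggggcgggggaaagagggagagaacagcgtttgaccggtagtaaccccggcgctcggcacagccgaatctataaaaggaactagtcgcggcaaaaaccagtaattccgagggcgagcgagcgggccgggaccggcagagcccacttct
The printed windows hold 3 copies of CCAAT for Msmo1, 2 for Idi1, 2 for Mvd, 1 for Cyp51, 4 for Hmgcs1 and 0 for Abca1, and Hmgcs1 alone among them holds the TCACNCCAC core. RefSeq windows were given for 27 of the 34 genes, 6 of them with several windows, where a match in any window counted. CCAAT was found in 14 of 15 cholesterol synthesis enzymes with a window (93.3%), in 4 of 8 regulators and transporters and in 2 of 4 fatty acid enzymes. It occurred in 41.1% of all 27025 genes with a window and in 43.4% of the 9704 tested genes with one. Acat2 was the enzyme without it. Copies were not limited to the largest rises: Mvk held 5 and Nsdhl 4, with rises of 0.56 and 0.46 in MPP. Tm7sf2 and Dhcr7, which did not pass in MPP, held CCAAT too. The TCACNCCAC core was found in 1 of 15 enzymes (6.67%), against 1.44% of all genes. The GC box GGGCGG was in 14 of 15 enzymes (93.3%), against 38.2% of all genes and 67.6% of tested genes, and the E-box CACGTG in 3 of 15 (20.0%), against 8.09% and 11.8%. These are counts of letters on both strands, without a test, in genes chosen for their role. Only these exact spellings were searched. A window without TCACNCCAC may therefore still hold a sterol regulatory element that is spelled otherwise.

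Among the regulators in multipotent progenitors the count of calls was near that of all genes. Of 10 regulators and transporters, 3 rose and 0 fell (limma adjusted p under 0.05; at an unadjusted p under 0.05, 3 were higher and 1 lower), where 20.7% of tested genes rose and 19.6% fell, and the median difference was 0.04. Insig1 and Stard4 are known SREBP targets. Insig1, whose protein retains SCAP and SREBP in the endoplasmic reticulum, read 9.23, 9.41 and 9.45 in T2F3 MPP, against 8.58, 8.45, 8.76 and 8.35 in WT MPP. The groups lay apart, with a rise of 0.82 ± 0.15 (adjusted p = 0.00074). Stard4, a cytosolic sterol carrier, read 8.99 in all 3 T2F3 MPP libraries, against 8.55, 8.62, 8.65 and 8.27 in WT MPP, a rise of 0.47 ± 0.11 (adjusted p = 0.00386). Insig2, the other retention protein, rose by 0.29 ± 0.09 (adjusted p = 0.019), at 7.68 ± 0.01 in T2F3 MPP and 7.39 ± 0.07 in WT MPP; its call was lost without T2F3 MPP 2, without T2F3 MPP 3 and when the ribosomal protein score was added to the model.

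The SREBP genes and their escort did not pass in multipotent progenitors. Srebf2, which encodes the SREBP that acts mainly on cholesterol genes, read 11.12, 11.15 and 11.23 in T2F3 MPP, against 11.19, 11.04, 11.04 and 11.07 in WT MPP. The ranges overlapped and the difference was 0.08 ± 0.13 (limma adjusted p = 0.634, 95% interval -0.19 to 0.35), while the ribosomal protein covariate gave 0.34 (adjusted p = 0.0308). Srebf1, whose products act more on fatty acid genes, stood at 10.01 ± 0.13 in T2F3 MPP and 10.00 ± 0.20 in WT MPP, a difference of 0.0009 ± 0.14 (adjusted p = 0.996). Scap read 9.91, 9.87 and 10.02 in T2F3 MPP, against 10.17, 10.13, 10.09 and 10.29 in WT MPP; every T2F3 library was the lower, yet the difference of -0.24 ± 0.13 did not pass (adjusted p = 0.133) and was 0.08 with the ribosomal protein covariate. The LXR genes gave -0.16 ± 0.09 for Nr1h2 (adjusted p = 0.143) and -0.22 ± 0.16 for Nr1h3 (adjusted p = 0.275), with mean levels of 9.30 ± 0.05 in T2F3 MPP and 9.46 ± 0.06 in WT MPP for Nr1h2 and of 3.99 ± 0.24 and 4.21 ± 0.11 in the same order for Nr1h3, a level close to the filter's minimum, where regularization shrinks differences most.

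The sterol exporters behaved apart from the enzymes. Abca1, which loads cholesterol onto lipid-poor apolipoprotein, read 7.47, 7.72 and 7.44 in T2F3 MPP, against 8.19, 8.33, 8.16 and 7.45 in WT MPP. WT MPP 5 lay among the T2F3 libraries, and the difference of -0.49 ± 0.20 missed the threshold (limma adjusted p = 0.0554). Without WT MPP 5 it was -0.68 (adjusted p = 0.00677), and it also passed without T2F3 GMP 3 (adjusted p = 0.0408) or WT GMP 1 (adjusted p = 0.0434), within a range of 0.00677 to 0.157 over all libraries left out in turn. Abcg1, the exporter to lipoprotein particles, stood at 9.82 ± 0.28 in T2F3 MPP and 9.60 ± 0.27 in WT MPP (0.23 ± 0.22, adjusted p = 0.419).

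The fatty acid synthesis enzymes did not show the rise of the cholesterol enzymes in multipotent progenitors. Of 6 enzymes, 0 rose and 0 fell by limma, where 20.7% of tested genes rose and 19.6% fell. With 6 genes a count of 0 carries little weight by itself. Of the 6, 0 had an unadjusted p under 0.05. Their median difference was 0.02, and their mean level was 10.17 to 10.41 in T2F3 MPP and 10.19 to 10.32 in WT MPP. Fatty acid synthase Fasn read 11.37, 11.29 and 11.45 in T2F3 MPP, against 11.64, 11.46, 11.38 and 11.78 in WT MPP, a difference of -0.20 with a 95% interval of -0.61 to 0.21. The desaturase Scd2 was at 12.05 ± 0.18 in T2F3 MPP and 11.76 ± 0.21 in WT MPP, and its paralog Scd1, from which reads may not be fully separated, at 7.90 ± 0.20 and 7.80 ± 0.19 in the same order. ATP-citrate lyase Acly, which makes cytosolic acetyl-CoA, was at 11.08 ± 0.17 in T2F3 MPP and 11.14 ± 0.04 in WT MPP, acetyl-CoA carboxylase Acaca at 9.77 ± 0.09 and 9.97 ± 0.18, and the elongase Elovl6 at 9.52 ± 0.08 and 9.43 ± 0.04, each in that order. After adding the ribosomal protein score to the model, Scd2 (0.53, adjusted p = 0.0392) and Acly (0.39, adjusted p = 0.00932) passed and the median was 0.30.

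**Figure D3:**
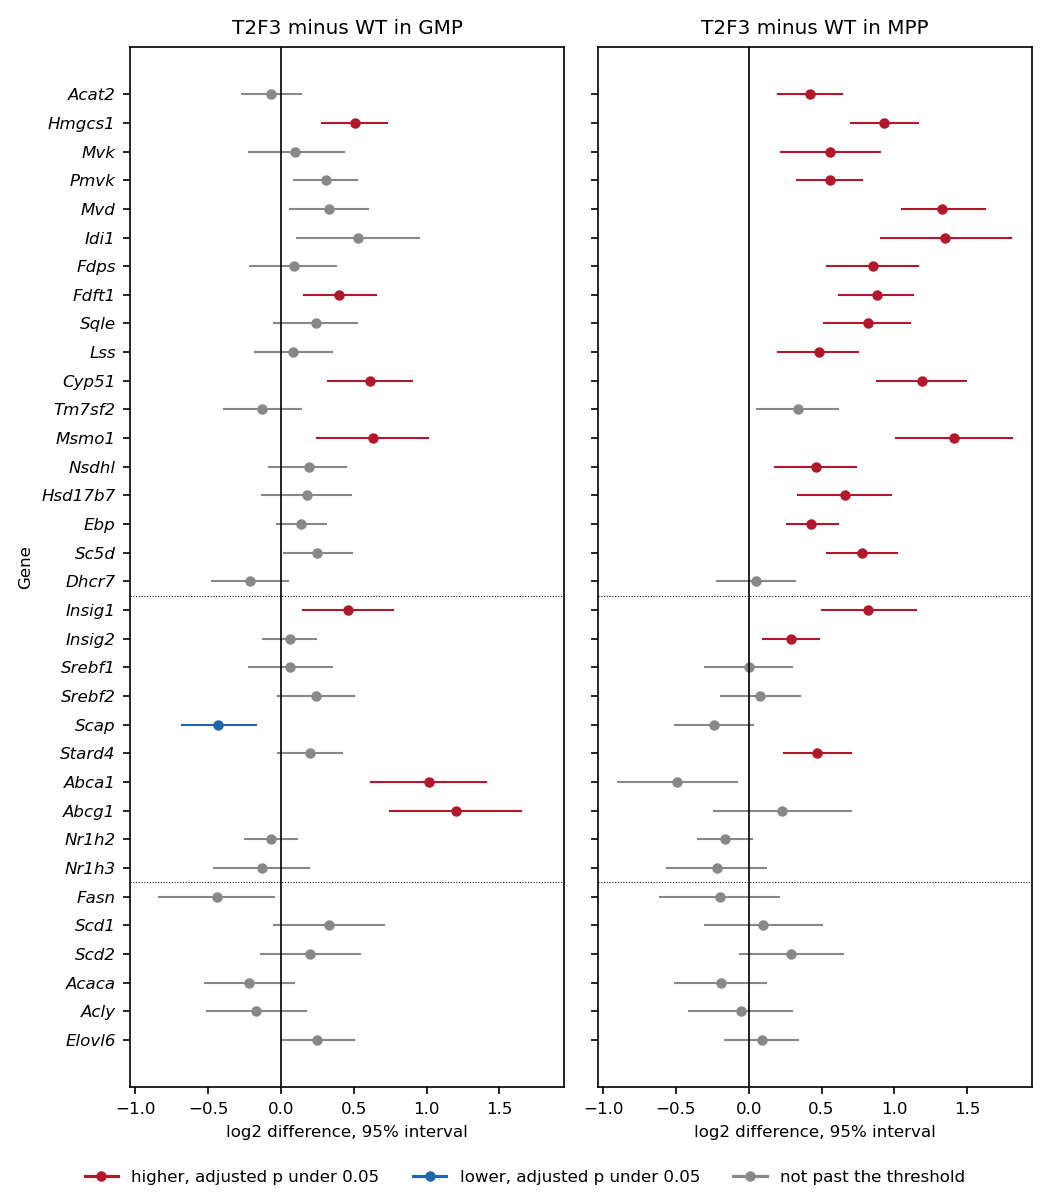
Difference, T2F3 minus WT, in log2 units (x axis; points, with 95% intervals as lines) for each of the 34 genes (rows) in GMP (left) and MPP (right), coloured by whether the limma adjusted p was under 0.05. In MPP 16 of 18 cholesterol enzymes lie to the right of 0 in red, and in GMP 4 of 18 do, with Abca1 and Abcg1 furthest to the right.

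In granulocyte-macrophage progenitors fewer enzymes differed and by less. Of 18 cholesterol synthesis enzymes, 4 rose in T2F3 and 0 fell (limma adjusted p under 0.05), where 9.25% of tested genes rose and 6.04% fell, 15.3% in all. With an unadjusted limma p under 0.05, 8 were higher and 0 lower, where 1727 of 12133 tested genes were higher and 1908 lower. The median difference of the enzymes was 0.21, against -0.02 over all tested genes, and the groups lay apart for 3 of 18, all with T2F3 the higher, as for 9.52% of tested genes (7.49% lay apart with T2F3 the lower). The mean level of the 18 enzymes was 8.17, 8.25 and 8.37 in T2F3 GMP libraries 1, 2 and 3, against 8.12, 8.18, 7.87, 8.02 and 7.97 in WT GMP libraries 1 to 5, so that T2F3 GMP 1 lay within the WT range.

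The enzymes that rose in GMP were Hmgcs1, Fdft1, Cyp51 and Msmo1. With 16 of 18 enzymes called in MPP, their presence in that set too is given as a description only. Hmgcs1 read 10.48, 10.52 and 10.68 in T2F3 GMP, against 9.89, 10.16, 10.07, 9.92 and 10.23 in WT GMP. The groups lay apart by 0.51 ± 0.10 (limma adjusted p = 0.00312). Cyp51 read 8.25, 8.58 and 8.90 in T2F3 GMP, against 7.98, 8.14, 7.78, 7.93 and 8.01 in WT GMP, again without overlap, and rose by 0.61 ± 0.14 (adjusted p = 0.00622). Msmo1 read 8.11, 8.67 and 8.29 in T2F3 GMP, against 8.27, 7.94, 7.38, 7.63 and 7.40 in WT GMP; T2F3 GMP 1 lay below WT GMP 1, and the rise was 0.63 ± 0.18 (adjusted p = 0.0263). Fdft1 read 7.62, 7.85 and 7.74 in T2F3 GMP, against 7.33, 7.63, 7.16, 7.42 and 7.13 in WT GMP, a rise of 0.40 ± 0.11 (adjusted p = 0.0245) with T2F3 GMP 1 just under WT GMP 2. Idi1, one of the largest rises in MPP, gave 9.08, 9.78 and 9.17 in T2F3 GMP, against 9.43, 8.97, 8.47, 8.64 and 8.55 in WT GMP, and did not pass (0.53 ± 0.20, adjusted p = 0.0827). Mvd gave 7.42, 7.60 and 7.70 in T2F3 GMP, against 7.32, 7.35, 7.04, 7.42 and 7.08 in WT GMP, and did not pass either (0.33 ± 0.13, adjusted p = 0.0923).

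Differences of the other 12 enzymes in GMP ran from -0.21 for Dhcr7 to 0.31 for Pmvk, whose limma adjusted p was 0.0534. The count of enzymes that rose depended on single libraries: it was 7 without WT GMP 1, where Idi1, Pmvk and Sc5d joined and Dhcr7 fell (-0.30, adjusted p = 0.0393), and 2 without T2F3 GMP 2, WT GMP 3 or WT GMP 5, where Fdft1 and Msmo1 no longer passed. Fdft1 was also lost without T2F3 GMP 3, and Msmo1 without WT GMP 4. With WT GMP 1 and T2F3 GMP 2, the libraries with high ribosomal protein genes, left out together, 5 rose at a median of 0.28. Dendritic markers rose in 11 of 12 in T2F3 GMP (mean level 8.88 to 9.27 in T2F3 GMP and 6.66 to 6.81 in WT GMP) and monocyte and macrophage markers in 6 of 9 tested (mean level 10.39 to 10.59 in T2F3 GMP and 9.38 to 9.66 in WT GMP), with none at 0. Mast cell and basophil markers fell in 6 of 6 (mean level 6.85 to 7.75 in T2F3 GMP and 9.29 to 10.02 in WT GMP), erythroid markers in 7 of 9 tested (5.01 to 5.30 in T2F3 GMP and 5.92 to 6.61 in WT GMP) and B cell markers in 4 of 5 tested (4.32 to 4.57 in T2F3 GMP and 5.11 to 5.74 in WT GMP). Of 4 tested T and NK cell markers, 1 rose and 0 fell in T2F3 GMP, and of 9 neutrophil markers 0 rose and 0 fell. The part of these lists in the enzyme differences was not tested.

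Among the regulators the exporters stood out in GMP. Of 10 regulators and transporters, 3 rose and 1 fell (limma adjusted p under 0.05), where 9.25% of tested genes rose and 6.04% fell, with a median difference of 0.13. Abca1 read 7.09, 7.29 and 7.74 in T2F3 GMP, against 6.57, 6.10, 6.40, 6.55 and 6.18 in WT GMP. All T2F3 libraries lay above all WT libraries, a 2.02-fold rise (1.02 ± 0.19, adjusted p = 0.00126). Abcg1 read 9.19, 9.40 and 9.90 in T2F3 GMP, against 8.16, 8.50, 8.65, 8.53 and 7.67 in WT GMP, likewise without overlap, a 2.29-fold rise (1.20 ± 0.21, adjusted p = 0.000917). Insig1 read 8.84, 9.06 and 9.14 in T2F3 GMP, against 8.91, 8.84, 8.22, 8.36 and 8.44 in WT GMP; the ranges overlapped and the rise of 0.46 ± 0.15 was near the threshold (adjusted p = 0.0444). Scap, the SREBP escort, fell by 0.43 ± 0.12 (-0.43, adjusted p = 0.0247), at 9.88, 9.58 and 10.12 in T2F3 GMP, against 9.97, 10.25, 10.37, 10.39 and 10.46 in WT GMP.

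The calls for Insig1 and Scap were each lost without T2F3 GMP 2, WT GMP 3, WT GMP 4 or WT GMP 5. Scap was also lost without T2F3 GMP 1, and Insig1 without T2F3 GMP 3, T2F3 MPP 2, T2F3 MPP 3, WT MPP 1 or WT MPP 3. The remaining regulators did not pass in GMP. Srebf2 read 10.54, 10.42 and 11.00 in T2F3 GMP, against 10.13, 10.55, 10.39, 10.58 and 10.41 in WT GMP (0.24 ± 0.12, limma adjusted p = 0.204), and the ribosomal protein covariate gave 0.33 (adjusted p = 0.0111). The difference of Srebf2 was 0.07 without T2F3 GMP 3, its highest T2F3 library, and 0.36 without T2F3 GMP 2 (adjusted p = 0.704 and 0.1). Srebf1 differed by 0.06 ± 0.13 (adjusted p = 0.799), Insig2 by 0.06 ± 0.09 (adjusted p = 0.692), Nr1h2 by -0.07 ± 0.08 (adjusted p = 0.606), Nr1h3 by -0.13 ± 0.15 (adjusted p = 0.599) and Stard4 by 0.20 ± 0.10 (adjusted p = 0.215). Of the 6 fatty acid enzymes 0 passed by limma, where 9.25% of tested genes rose and 6.04% fell. At an unadjusted limma p under 0.05 Elovl6 was higher (0.25) and Fasn lower (-0.44). Fasn varied widely, at 11.09, 10.83 and 11.57 in T2F3 GMP, against 11.09, 11.61, 11.82, 11.48 and 12.03 in WT GMP, and passed as lower without WT GMP 1 (-0.57, adjusted p = 0.0132) or without T2F3 GMP 3 (-0.65, adjusted p = 0.0354).

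**Figure D4:**
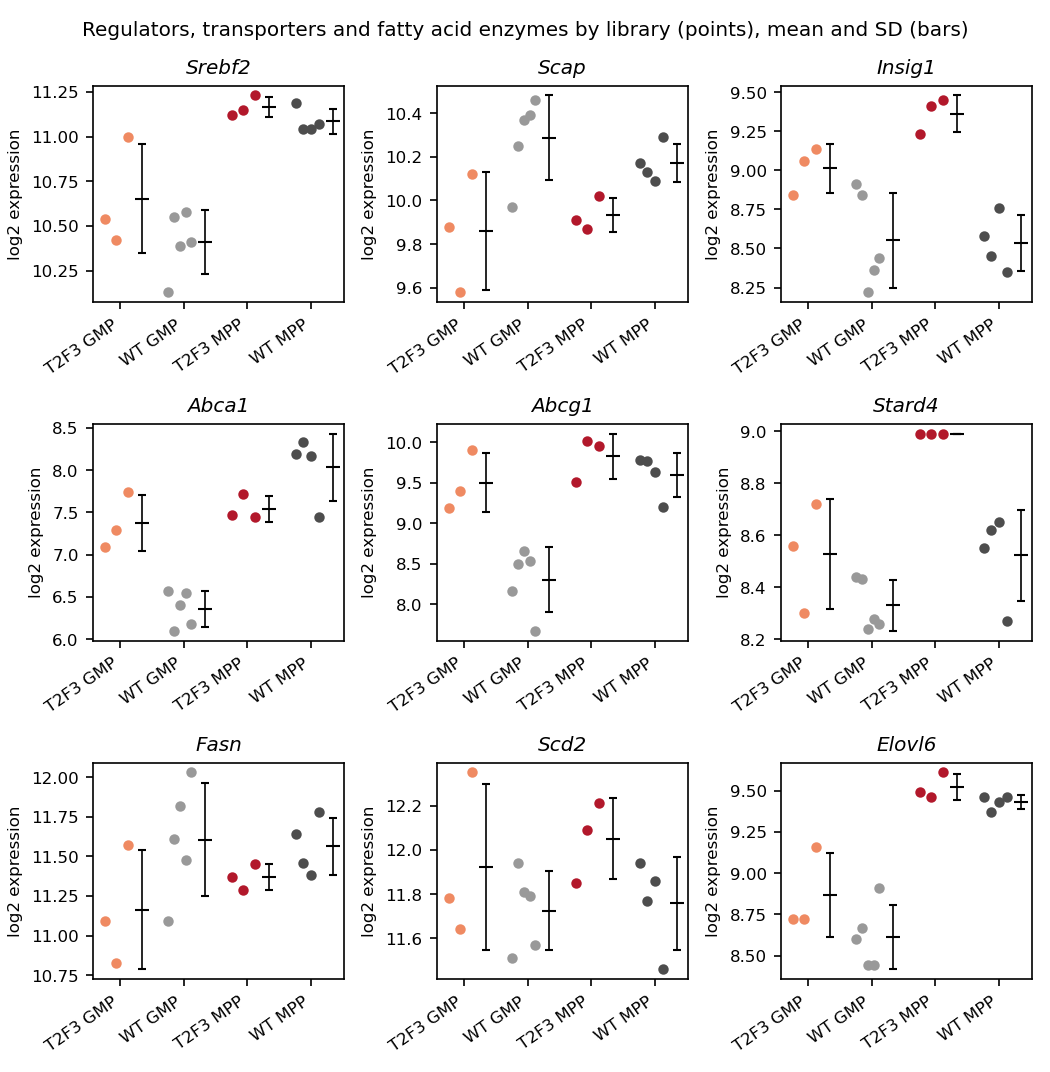
Log2 expression (y axis) of 6 sterol regulators or transporters and 3 fatty acid enzymes in each library (points) of the T2F3 GMP, WT GMP, T2F3 MPP and WT MPP groups (x axis), with the group mean and SD over libraries (bars). The T2F3 GMP points of Abca1 and Abcg1 lie above all WT GMP points, and Elovl6 is lower in all GMP libraries than in all MPP libraries.

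A direct test of whether the genotype difference in GMP departed from that in MPP called 2 of the 34 genes, where 2.26% of tested genes were called, 1.38% higher and 0.882% lower. Mvd had a smaller difference in GMP (0.33) than in MPP (1.33), by -1.0 ± 0.19 (limma adjusted p = 0.0107). Abca1 went the other way, with 1.02 in GMP and -0.49 in MPP, a difference of 1.51 ± 0.27 (adjusted p = 0.00898). For all 18 cholesterol synthesis enzymes the estimate was lower in GMP than in MPP (median -0.48, against -0.01 over all tested genes). By limma 14 of them had an unadjusted p under 0.05, where 1140 of 12133 tested genes were lower at that p. Apart from Mvd, the other 17 enzymes did not pass after adjustment. Fdps came nearest, at -0.76 ± 0.20 (adjusted p = 0.0588), followed by Acat2 at -0.48 ± 0.14 (adjusted p = 0.0884). Abcg1 gave 0.97 ± 0.31 (adjusted p = 0.108). Of the fatty acid enzymes 0 passed by limma and 0 had an unadjusted p under 0.05. Without T2F3 MPP 1 the number of enzymes called was 4, with Fdps, Acat2 and Hmgcs1 beside Mvd, and without WT GMP 1 and T2F3 GMP 2 together they were also 4, with Idi1, Msmo1 and Sc5d beside Mvd.

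The step from MPP to GMP was compared within each genotype; these comparisons use the same libraries as those above and are no separate support for them. In T2F3, 0 of 18 cholesterol enzymes were higher in GMP and 5 lower (limma adjusted p under 0.05, where 10.5% of tested genes were higher and 11.7% lower, 22.2% in all). With an unadjusted limma p under 0.05, 2 were higher and 7 lower, where 1886 of 12133 tested genes were higher and 2024 lower. Sqle was at 8.57 ± 0.26 in T2F3 GMP and 9.23 ± 0.12 in T2F3 MPP (-0.66 ± 0.15, adjusted p = 0.00369), Lss at 7.20 ± 0.22 and 7.84 ± 0.09 (-0.64 ± 0.14, adjusted p = 0.00252), and Cyp51 at 8.58 ± 0.32 and 9.25 ± 0.24 (-0.67 ± 0.15, adjusted p = 0.00399), each in that order. Idi1 (-0.65 ± 0.22, adjusted p = 0.0461) and Hmgcs1 (-0.36 ± 0.12, adjusted p = 0.0327) also fell, and both calls were lost without T2F3 MPP 2, T2F3 MPP 3 or T2F3 GMP 1, which left 3 enzymes. Idi1 was lost as well without T2F3 MPP 1, T2F3 GMP 3, WT MPP 1, 3 or 5, or WT GMP 2 or 4, and Hmgcs1 without T2F3 GMP 2. Of the regulators, Srebf2 (-0.51 ± 0.14, adjusted p = 0.0127) and Stard4 (-0.46 ± 0.12, limma adjusted p = 0.00761) fell, Srebf2 not past the threshold without T2F3 MPP 3, T2F3 GMP 1 or T2F3 GMP 2.

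In WT the same step went with higher levels of other enzymes. In GMP 7 of 18 rose and 0 fell (limma adjusted p under 0.05, where 25.4% of tested genes were higher and 23.2% lower, 48.6% in all). With an unadjusted limma p under 0.05, 8 were higher and 1 lower, where 3591 of 12133 tested genes were higher and 3173 lower. Fdps read 9.54, 9.85, 9.44, 9.46 and 9.37 in WT GMP, against 8.48, 8.32, 8.56 and 8.17 in WT MPP, a 2.22-fold rise without overlap (1.15 ± 0.13, adjusted p = 1.83e-06). Mvd read 7.32, 7.35, 7.04, 7.42 and 7.08 in WT GMP, against 6.38, 6.10, 6.53 and 6.49 in WT MPP, a rise of 0.87 ± 0.12 (adjusted p = 1.59e-05). Ebp (0.53 ± 0.07, adjusted p = 2.19e-05), Sc5d (0.53 ± 0.10, adjusted p = 0.000371), Tm7sf2 (0.50 ± 0.12, adjusted p = 0.00201), Mvk (0.46 ± 0.14, adjusted p = 0.0122) and Acat2 (0.32 ± 0.09, adjusted p = 0.00766) rose by less, Mvk not without WT MPP 5. Groups lay apart for 6 of 18 enzymes, all in the higher direction, as for 22.6% of tested genes, while 20.4% of tested genes lay apart in the lower direction. Ribosomal protein genes rose in 31 of 76 in the same comparison (median 0.50), and with their score as a covariate the 7 enzymes kept their calls.

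The exporters fell along the step in WT. Abca1 stood at 6.36 ± 0.21 in WT GMP (SD, n = 5) and 8.03 ± 0.40 in WT MPP (n = 4), a 3.19-fold fall (-1.68 ± 0.17, limma adjusted p = 7.86e-07), and Abcg1 at 8.30 ± 0.40 and 9.60 ± 0.27 in that order, a 2.45-fold fall (-1.30 ± 0.19, adjusted p = 4.48e-05). In T2F3 neither passed, at 7.38 ± 0.33 in GMP and 7.54 ± 0.15 in MPP for Abca1 (-0.17 ± 0.21, adjusted p = 0.65) and 9.50 ± 0.36 and 9.82 ± 0.28 for Abcg1 (-0.33 ± 0.24, adjusted p = 0.386). Srebf2 was lower in GMP than in MPP in both genotypes, by -0.67 ± 0.11 in WT (adjusted p = 0.000136), beside the -0.51 in T2F3. The elongase Elovl6, which extends palmitate, was lower in GMP in both as well, at -0.65 ± 0.13 in T2F3 (adjusted p = 0.00114) and -0.82 ± 0.11 in WT (adjusted p = 8.87e-06), and Scd1 fell in WT (-0.56 ± 0.17, adjusted p = 0.0104). With the ribosomal protein covariate Scd1 lost its call in WT, and Fasn (0.40), Acaca (0.34) and Acly (0.56) passed as higher in WT GMP. Of 15 proliferation genes, 7 were higher in T2F3 GMP than in T2F3 MPP and 10 in WT GMP than in WT MPP, none of them lower, where 10.5% of all tested genes were higher in T2F3 and 25.4% in WT.

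Neighbouring pathways, listed apart from the 34 genes except for some LXR targets, are read against the shares of all tested genes, 20.7% higher and 19.6% lower in MPP and 9.25% higher and 6.04% lower in GMP. Of 13 tested genes of the mevalonate side branches to prenyl groups, dolichol and ubiquinone, 1 rose (the farnesyltransferase subunit Fnta, 0.40) and 1 fell (Dhdds, -0.25) in T2F3 MPP, and 0 rose and 3 fell in T2F3 GMP (Fntb, -0.36; Pdss2, -0.34; Nus1, -0.31). Of 19 other lipid synthesis genes, 4 rose and 2 fell in MPP and 2 rose and 0 fell in GMP, led in both by the fatty acid elongase Elovl7 at 1.08 ± 0.13 in MPP (limma adjusted p = 8.87e-06) and 0.86 ± 0.12 in GMP (adjusted p = 9.23e-05). Of 20 genes of sterol sensing and transport, 5 rose and 3 fell in MPP and 2 rose and 1 fell in GMP. Sterol hydroxylase Cyp27a1, which makes an oxysterol that activates LXR, read 8.56, 9.21 and 9.02 in T2F3 MPP, against 6.61, 6.94, 7.01 and 6.89 in WT MPP (2.07 ± 0.18, adjusted p = 3.05e-07), and its difference in GMP was 1.95 ± 0.17 (adjusted p = 5.35e-07). The lysosomal cholesterol carrier Npc2 was higher in both populations (1.06 in MPP and 0.61 in GMP), and the lipoprotein receptor Vldlr was lower in both (-2.31 in MPP and -0.55 in GMP). The LXR target list shares Abca1, Abcg1, Nr1h3 and Srebf1 with the 34 genes. Of its 8 tested genes, 0 rose and 2 fell in MPP (Mylip, -0.43, and Lpcat3, -0.31), and 3 rose in GMP, Smpdl3a (0.48) beside both exporters. Of 16 fatty acid oxidation genes, 5 rose and 2 fell in MPP, where 40.3% of all tested genes were called, and 0 passed in GMP by limma, with 2 at an unadjusted p under 0.05.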

How the data were processed

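The deposited table holds log2 expression values, marked as regularized log values by its name, for 24424 genes in 15 RNA-seq libraries of bone marrow progenitors. The submitters' processing notes list STAR, Bowtie, HOMER, DESeq2 and the mm9 build without roles; how reads were counted, and whether strand was used, is not given in the sources used here. Regularization shrinks differences of genes with few reads. Without counts, sequencing depth and counting error cannot be given. Symbols came from the RefSeq gene table by Entrez ID (24345 matched). The other 41 samples of the series, of hydroxymethylcytosine and input DNA, were not analysed here.

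One limma 3.58.1 model in R 4.3.3 (a mean per group, eBayes with trend and robust) was fitted to all 12133 genes with a mean of at least 4, with two-sided tests, Benjamini-Hochberg adjustment over all of them and a threshold of 0.05. On simulated data for 12133 genes, 200 of them changed, it recovered 54% of changes of 0.5 and 96% of changes of 1 for T2F3 against WT in MPP, 58% and 96% in GMP, and 12% and 68% for the difference of these effects. The simulated noise was independent between genes, and far more genes were called in the data (40.3% in MPP). These rates therefore do not give the power of the tests reported here. Figures and joins used Python 3.11.15, pandas 2.3.3 and Matplotlib 3.10.9. The members and lists were chosen with earlier results of these data known. All members are named, with tests for those past the threshold, for the regulators and for members described as exceptions, the last chosen after their values were seen. From each other list up to 4 genes per comparison, by p, could be named. Alternatives were other filters, a pseudocount of 8, median centring, quantile normalization, no trend or robust step, the compared groups alone, a test against 0.5, replicate blocks, a ribosomal protein covariate and libraries left out.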

Additional observations from a re-analysis of the deposited data

Results flagged for a closer look

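Within-group spread was examined for 68 sets of libraries, 34 genes in each of both WT groups, and chance flags about 1 in 20. Dhcr7 in WT GMP 1 stood at 8.11, away from the other WT GMP libraries at 8.49 to 8.61; WT GMP 1 also has the highest ribosomal protein genes of its group. Nr1h2 in WT MPP 4 stood at 9.37, away from the other WT MPP libraries at 9.48 to 9.50. The genotype difference of Mvd was lower in GMP than in MPP by a test of the difference itself (-1.0, limma adjusted p = 0.0107), and that of Abca1 was higher in GMP than in MPP (1.51, limma adjusted p = 0.00898).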

How the results depend on the processing

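With each library left out in turn, the number of cholesterol enzymes that rose was 14 to 17 in MPP and 2 to 7 in GMP (0 to 1 fell in GMP). For regulators, 0 to 1 fell in MPP and 0 to 1 in GMP; for fatty acid enzymes, 0 to 1 fell in GMP. Along the step in T2F3, 3 to 6 enzymes were lower and 0 to 1 higher, with 1 to 2 regulators and 1 to 2 fatty acid enzymes lower. Along the step in WT, 0 to 1 enzymes were lower and 0 to 1 fatty acid enzymes higher. The difference of effects called 1 to 4 enzymes lower. Srebf1 changed sign within -0.07 to 0.09 in MPP and -0.11 to 0.16 in GMP, and Insig2 within -0.02 to 0.11 in GMP.

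Tested against a log2 difference of 0.5, 5 enzymes and 0 regulators rose in MPP, and in GMP 0 enzymes and 0 regulators rose and 0 fell. That test left 0 enzymes, 0 regulators and 0 fatty acid enzymes lower along the step in T2F3, 2 enzymes higher and 1 fatty acid enzyme lower in WT, and 0 calls for the difference of effects. Median centring called 1 regulator, Abca1, lower in MPP and 1 enzyme, Lss, lower along the step in WT, with Srebf1 at -0.06 in MPP. Quantile normalization called Abca1 lower in MPP (1 regulator) and Nr1h3 higher along the step in each genotype (1 regulator each), with Srebf1 at -0.02 in MPP and Insig2 at -0.02 in GMP, and medians along the step in WT of -0.15 for regulators and -0.24 for fatty acid enzymes. With the compared groups alone, 1 regulator, Scap, fell in MPP, 2 enzymes rose and 0 regulators fell in GMP, and 1 regulator was lower along the step in T2F3.

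In MPP the ribosomal protein score split by genotype without overlap, so a covariate cannot set it apart from genotype there. The ribosomal protein covariate gave, in MPP, 1 regulator lower (Nr1h3), 2 fatty acid enzymes higher and medians of 0.19 for regulators and 0.30 for fatty acid enzymes, with Scap at 0.08. Along the step it gave 1 enzyme and 1 regulator higher in T2F3, and in WT 2 regulators and 3 fatty acid enzymes higher, 1 fatty acid enzyme lower and a median of 0.24 for the fatty acid enzymes. It called 4 enzymes, 1 regulator and 2 fatty acid enzymes lower for the difference of effects. Without WT GMP 1 and T2F3 GMP 2, 1 regulator, Scap, fell in MPP, 1 fatty acid enzyme, Acly, was higher along each step, 1 regulator was higher in WT GMP, and 4 enzymes were called lower for the difference of effects. Apart from leaving libraries out, the causes were not tested.

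Nothing in the labels says what replicate numbers mark, and the libraries were not taken as pairs because not every same-numbered pair correlated above 0.1. Deviations of same-numbered MPP and GMP libraries correlated at 0.055 to 0.296 in T2F3 and 0.059 to 0.464 in WT; all 7 were positive, 5 were above 0.1, and 4 of 7 MPP libraries correlated best with their own number, a hint of shared origin from the data and not from the design. With the number as a replicate block, 1 regulator, Abca1, fell in MPP, where Acat2, Mvk and Insig2 lost their calls and Srebf1 stood at -0.01. In GMP 2 enzymes rose and 0 regulators fell, as Fdft1, Msmo1, Insig1 and Scap lost their calls, and the difference of effects called 2 regulators higher. With genotype and number taken as 1 animal (estimated correlation 0.099), Srebf1 stood at -0.0041 in MPP and 2 enzymes were called lower for the difference of effects.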
